A study of Mus musculus with 3 samples.

Results

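In 1 of the 3 sets of cell barcodes deposited for mouse ovary, here called barcode set 3 after the ending of its barcodes, 131 of 11475 cells carried high *Ptx3* together with other genes of cumulus expansion. These *Ptx3*-high cells were 1.14% of the set (exact binomial interval of 0.955% to 1.35%) and came from a table of 31776 cells in all. They were chosen by their measured values, as cells with *Ptx3* of at least 2 on the deposited natural log scale, with at least 1 of the companion genes *Grem1*, *Tnfaip6*, *Has2* and *Nupr1* detected, with *Dcn* and *Cyp17a1* below 2, and with no *Ptprc* and no *Pecam1*. The last 4 genes kept out cells with stromal, theca, leukocyte and endothelial RNA. The comparison cells were the 4811 other cells of the set with *Inha* of at least 2, *Cyp17a1* below 2 and no *Ptx3*, *Inha* being the inhibin alpha subunit that granulosa cells (GCs) make. The genes of both rules are therefore given as a description only.

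The series holds scRNA-seq libraries of whole mouse ovary made on the 10x Genomics platform, with 1 library from ovaries taken at 0 h, 1 at 1 h and 1 at 6 h after an injection of human chorionic gonadotropin (hCG), which acts on the LH receptor and starts ovulation. The paper that reported the data describes Kunming mice aged 21 days, given PMSG (a gonadotropin with FSH activity) 48 h before the ovaries were removed, and names no hCG there, a description that fits the 0 h library alone. Whether the mice of the other libraries had PMSG, and how many animals went into a library, is not given in the sources used here. No source says which barcode ending belongs to which library, so the sets carry no time point, and each was treated as 1 sample without a replicate. No test between conditions was possible, and every interval below covers counting error only, at 95%.

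When LH or hCG reaches a preovulatory follicle, the cumulus cells around the oocyte lay down a hyaluronan matrix and the complex expands. HAS2 makes the hyaluronan, TNFAIP6 moves protein chains of serum origin onto it, and the pentraxin PTX3 holds these chains together. The oocyte permits the response through GDF9 and BMP15, EGF-like ligands from mural GCs pass on the LH signal, and GREM1 is an antagonist of BMPs that cumulus cells make in answer to the oocyte. Mural GCs instead turn towards steroid synthesis and the corpus luteum, with *Star*, *Cyp11a1* and *Prlr* among their genes.

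The *Ptx3*-high cells were deeper than the comparison cells, and no doublets were removed. They held a median of 11225 UMIs (618 to 35728; 1623152 in total), against 6324 in the comparison cells and 6524 over the set, and 9 of them had fewer than 3000. The mitochondrial share was a median of 2.67% against 3.25%. *Mki67* or *Top2a*, genes of dividing cells, was detected in 63 of them (48.1%) against 27.5% of the comparison cells. Scrublet called 23 cells of the set, or 0.200%, so few that the caller was taken not to have worked. Of its calls, 2 were *Ptx3*-high cells. Over the 3 sets, 112 barcodes occurred more than once, 1 of them in a *Ptx3*-high cell, and none was shared with a cell that met the same rule in barcode set 2. Levels below are UMIs of a gene per 10000 UMIs summed over a class of cells, with an exact Poisson interval.

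The genes that chose the cells differed in how evenly they were carried. *Ptx3* ranged from 2.0004 to 4.53 on the natural log scale with a median of 3.22, and from 1 to 132 UMIs per cell with a median of 29. *Nupr1*, a small stress-response chromatin protein, was detected in 126 of the 131 cells, *Tnfaip6* in 111, *Grem1* in 105 and *Has2* in 63. All 4 companions were found together in 56 cells, 3 in 42, 2 in 22 and 1 in 11. In the comparison cells *Tnfaip6* was detected in 42.0% and *Nupr1* in 37.1%, at their lower depth. The summed level of *Ptx3* was 28.6 (27.8 to 29.5) against 0 in the comparison cells by choice, that of *Nupr1* 25.9 against 1.54, of *Tnfaip6* 7.66 against 1.66, of *Grem1* 5.08 against 0.259 and of *Has2* 0.936 against 0.0278. *Inha* was detected in all 131, at 28.0 against 33.8 in the comparison cells, which had been chosen for it.

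The threshold on *Ptx3* cut a continuous range. Just inside it, 24 cells lay below 2.5, with a median of 9 *Ptx3* UMIs, and 29.2% of them had *Has2*. Just outside it, 71 cells that otherwise met the rule lay from 1.5 to below 2, with a median of 4 *Ptx3* UMIs, and 14.1% had *Has2*. In all, 468 cells below 2 otherwise met the rule, and 315 of these had a single *Ptx3* UMI. Of the 149 cells of the set with *Ptx3* of at least 2, 18 failed, 14 of them for RNA of an excluded cell type and 4 for the want of a companion alone. The 131 cells carried 4648 of the 6275 *Ptx3* UMIs of the set, or 74.1%.

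*Ptx3* lies on chromosome 3 at 66219910 to 66225805 and *Tnfaip6* on chromosome 2 at 52038009 to 52056686, both on the plus strand of GRCm38 (GENCODE). Their promoters are shown because these genes carry the matrix step that defines the cells. The sequences are the RefSeq promoter windows on GRCm38.p6, cut where either annotation starts the gene, at chr3:66219637-66219886 for *Ptx3* and chr2:52037863-52038008 for *Tnfaip6*, with motif matches in capitals.
Ptx3: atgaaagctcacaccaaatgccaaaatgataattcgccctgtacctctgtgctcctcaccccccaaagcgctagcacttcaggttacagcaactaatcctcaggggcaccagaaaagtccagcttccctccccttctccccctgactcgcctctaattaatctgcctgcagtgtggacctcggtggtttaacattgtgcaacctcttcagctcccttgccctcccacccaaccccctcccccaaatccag
Tnfaip6: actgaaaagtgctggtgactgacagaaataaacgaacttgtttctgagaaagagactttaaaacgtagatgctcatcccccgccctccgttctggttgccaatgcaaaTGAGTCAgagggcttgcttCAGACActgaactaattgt
Searched on both strands were the cAMP response element TGACGTCA, the AP-1 site TGANTCA, the SMAD element CAGACA and the TATA box TATAAA, which do not overlap here. In *Tnfaip6* the AP-1 match starts 38 bases and the SMAD match 19 bases before the GENCODE start. The *Ptx3* window holds 0 matches to these letters. Over 32851 mouse promoter windows of 250 bases, 6.75% hold the AP-1 letters, 17.1% the SMAD letters, 1.55% the cAMP response element and 12.4% the TATA box. A match is a description of the letters and not a site of binding. *Has2* is named only.

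In a background of 5454 genes with a mean of both levels of at least 0.25, 208 genes (3.81%) were at least 2-fold higher and 280 (5.13%) at least 2-fold lower in the *Ptx3*-high cells. Of the 208, 5 were genes of the rule. The largest ratios among the other genes detected in at least 20% of the *Ptx3*-high cells belonged to genes of mixed roles. *Sytl3*, a synaptotagmin-like protein of vesicle transport, was at 1.45 (1.27 to 1.65) against 0.0329, a ratio of 44.3 (35.3 to 55.8). *Lox*, the lysyl oxidase that cross-links collagen and elastin, was at 2.02 (1.81 to 2.25) against 0.0734. *Krt23* and *Krt79*, both keratins, were at 0.893 against 0.0235 and at 1.53 against 0.143. *Fabp7*, a fatty acid binding protein, stood at 1.24 against 0.0450. None of these 5 genes was detected in more than 6.73% of the comparison cells.

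**Figure D1:**
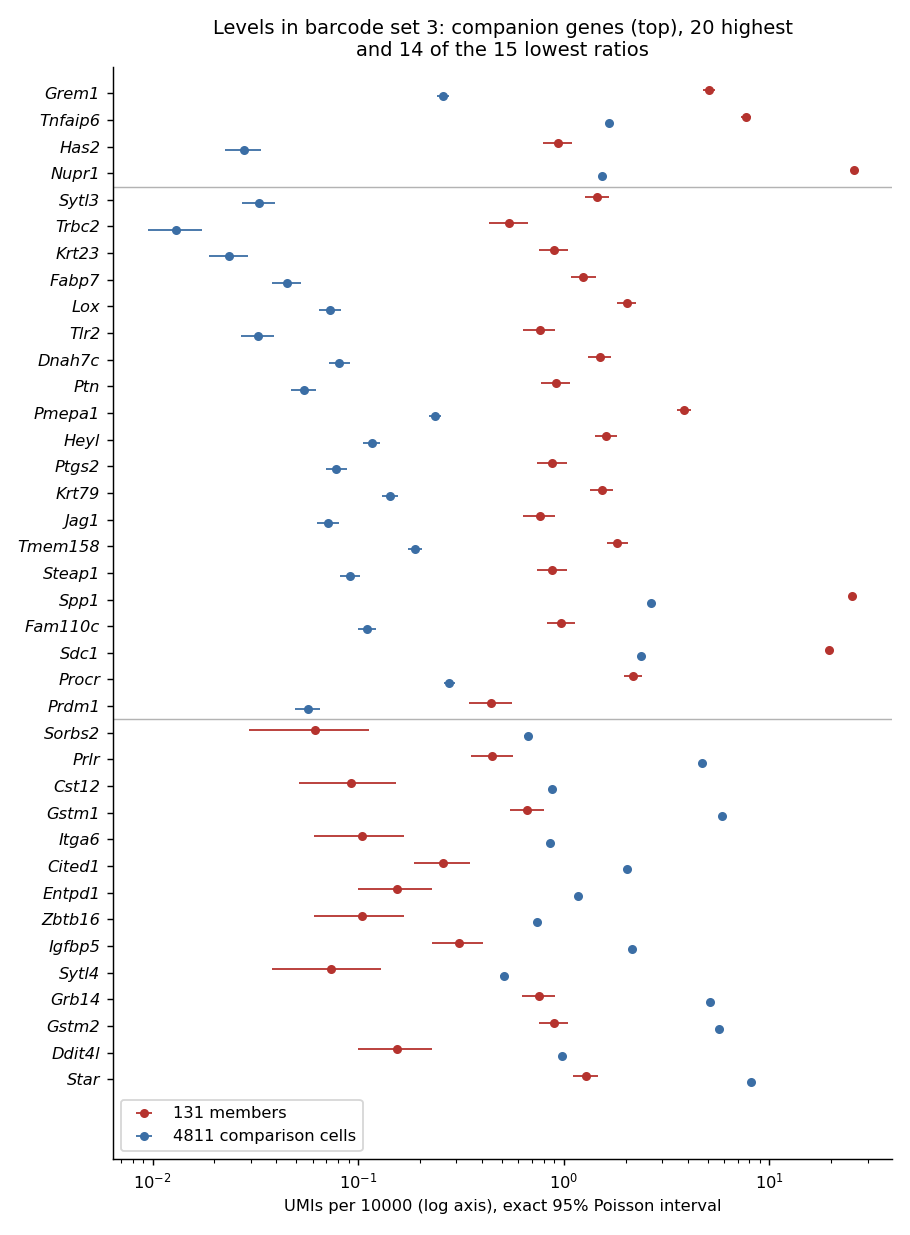
Levels in UMIs per 10000 (log axis) of the 4 companion genes, the 20 genes of highest and 14 of the 15 of lowest ratio, in 131 *Ptx3*-high cells (red) and 4811 comparison cells (blue) of barcode set 3, with exact 95% Poisson intervals. The companions helped choose the cells and the other genes were picked for their ratios, so the distance between the classes is a description only. *Nupr1* is at 25.9 against 1.54 and *Prlr* at 0.450 against 4.69.

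Several of the highest genes code for secreted or surface proteins. *Spp1*, the secreted phosphoprotein osteopontin, was at 25.3 (24.55 to 26.1) against 2.67, and it was carried unevenly, with natural log values from 0 to 5.11, a median of 2.004 and a lower quartile of 0 over the 131 cells. *Sdc1*, a heparan sulfate proteoglycan of the cell surface, was at 19.4 (18.8 to 20.1) against 2.37 and was spread evenly, with values from 0 to 3.87, a median of 2.98 and detection in 125 cells. *Ptn*, the heparin-binding growth factor pleiotrophin, was at 0.918 against 0.0544 and was found in 33 of the cells. The endothelial protein C receptor *Procr* was at 2.17 against 0.277, the toll-like receptor *Tlr2* at 0.764 against 0.0326, and *Steap1*, a membrane protein of the STEAP family, at 0.875 against 0.0912. *Sdc1* was therefore detected in nearly every *Ptx3*-high cell, *Spp1* in 95 of the 131 and *Ptn* in the fewest of these 3 genes.

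A pair of genes linked to Notch and a gene that TGF-beta induces were among the 20, picked out after their values were seen. *Jag1*, a Notch ligand, was at 0.764 (0.635 to 0.911) against 0.0717, and *Heyl*, a transcriptional repressor that Notch induces, at 1.61 (1.42 to 1.82) against 0.116. *Pmepa1*, which TGF-beta induces and which restrains SMAD signalling, was at 3.84 (3.54 to 4.15) against 0.237. The transcriptional repressor *Prdm1* was at 0.444 against 0.0569. The rest of the 20 were *Ptgs2*, *Dnah7c*, *Tmem158*, *Fam110c* and *Trbc2*. *Dnah7c*, an axonemal dynein heavy chain, was at 1.497 against 0.0810 and has near-identical neighbours from which reads may have been shared. *Trbc2*, a constant region of the T cell receptor, was at 0.542 against 0.0130 in cells chosen to lack *Ptprc*, and the T cell gene *Cd3e* was at 0.0123 against 0.0830 in the same classes.

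Shares of cells were compared at 3000 UMIs per cell, which left out 9 of the *Ptx3*-high and 393 of the comparison cells. *Ptx3* was then found in 99.2% of the *Ptx3*-high cells and in 2.64% of 1059 stromal reference cells with high *Dcn* and no *Inha*, whose unthinned median was 5795 UMIs. It was found in 0 of 165 endothelial reference cells (median 4826 UMIs). *Nupr1* was found in 93.4% (87.5% to 97.1%) of the *Ptx3*-high cells, 23.9% of the comparison cells and 24.6% of the stromal cells. The comparison and stromal cells thus had *Nupr1* in about the same share of cells. *Sdc1* was found in 91.8% against 36.4% and, in stromal cells, 25.97%. *Sytl3* was found in 21.3% (14.4% to 29.6%; 49.6% without thinning) against 0.860%, with 0.472% in stromal cells. For *Procr* the share of 33.6% (25.3% to 42.7%) overlapped that of the endothelial cells, 30.9%, and for *Ptn* 11.5% (6.42% to 18.5%) overlapped their 9.70%. The intervals also overlapped those of endothelial cells for *Jag1* (17.2% against 10.9%), *Prdm1* (16.4% against 7.27%) and *Tmem158* (22.1% against 12.7%). That of *Tmem158* overlapped the stromal one too (13.5%).

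The 15 lowest genes included *Prlr* and *Star*, both of the luteal marker list, while of the antral mural GC markers only 2 were tested, *Cyp11a1*, which was lower, and *Inhba*, which was higher. *Prlr*, the prolactin receptor, was at 0.450 (0.353 to 0.565) against 4.69, a ratio of 0.0958 (0.0751 to 0.121). *Star*, which carries cholesterol into mitochondria, was at 1.28 (1.11 to 1.46) against 8.13. *Cited1*, a transcriptional co-regulator, was at 0.259 against 2.03. In the comparison cells *Prlr* was detected in 60.4% and *Star* in 59.9%. The glutathione S-transferases *Gstm1*, at 0.665 against 5.87, and *Gstm2*, at 0.893 against 5.70, are close paralogs whose reads may not be fully separated.

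The other lowest genes had mixed roles. *Igfbp5*, an IGF-binding protein, was at 0.308 against 2.14, and *Grb14*, an adaptor that restrains the insulin receptor, at 0.758 (0.630 to 0.904) against 5.15. *Itga6*, an integrin alpha subunit that binds laminin, was at 0.105 against 0.859. *Entpd1*, an ectonucleotidase, was at 0.154 against 1.17, and *Zbtb16*, a zinc finger repressor, at 0.105 against 0.742. *Sorbs2*, *Cst12*, *Sytl4* and *Ddit4l* were also among the 15, with ratios from 0.0920 for *Sorbs2* to 0.157 for *Ddit4l*. The 15 were picked for their low ratios, so the distance of their intervals from those of the comparison cells is a description only. Against only those comparison cells with at least 11225 UMIs, the median of the *Ptx3*-high cells, all 20 highest and all 15 lowest genes were still at least 2-fold apart, and 20 of the 25 list medians kept their sign, in an alternative chosen after seeing the data.

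Markers of GCs were present in the *Ptx3*-high cells, but several were lower than in the comparison cells. Of 9 tested GC markers beside *Inha*, 2 were higher, *Inhba* at 6.83 against 1.92 and *Inhbb* at 1.48 against 0.551, which code for the beta subunits of activin and inhibin. Cluster 11, described below, held more of the cells than any other. Against comparison cells of that cluster *Inhba* had a ratio of 0.993 (0.897 to 1.098) and *Inhbb* of 0.574 (0.461 to 0.711), neither being higher. Within cluster 7, which held the next most, both were higher, with ratios of 2.69 (2.42 to 2.98) and 4.49 (3.54 to 5.68). Lower over all cells were *Amh* at 0.0431 against 0.495, *Nr5a2* at 0.610 against 2.58, *Foxl2* at 0.351 against 0.945 and *Kctd14* at 0.0431 against 0.731. Cluster 5, with *Kctd14* and *Amh* among its leading genes, held 15.6% of the comparison cells and 0 *Ptx3*-high cells. Its part in these ratios was not tested. *Serpine2*, a protease inhibitor of GCs, stood at 20.3 against 11.4, and *Fst*, follistatin, at 5.52 against 3.16, both within 2-fold. *Lhcgr*, the LH receptor that mural GCs gain, was found in 3 of the cells, at 0.0185 (0.00381 to 0.0540) against 0.326. *Fshr* was at 0.0739 against 0.310, and both receptors were below the mean level needed for testing.

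Markers of theca and luteal cells were mostly lower, and those of stroma and smooth muscle were not. All 4 tested theca markers (*Cyp11a1*, *Aldh1a1*, *Fabp3* and *Mgarp*) were at least 2-fold lower, with *Cyp11a1*, the cholesterol side-chain cleavage enzyme, at 2.29 against 12.01. Of 4 tested luteal markers 3 were lower, *Prlr*, *Star* and *Sfrp4* (2.15 against 7.76). None of the endothelial, leukocyte, oocyte, erythroid and surface epithelium markers reached the level needed for testing. Without *Pecam1* and *Ptprc*, which the rule set to 0 in the *Ptx3*-high cells alone, their summed levels were 0.228 against 0.526 for the endothelial markers and 0.123 against 0.387 for the leukocyte markers, and they were 0.0370 against 0.0581 for the 8 oocyte markers. The rule took whole cells with *Pecam1* or *Ptprc* out of the *Ptx3*-high class only, so the endothelial and leukocyte sums partly follow from it. Of the oocyte markers 5 had no UMI in the *Ptx3*-high cells, *Zp2*, *Bmp15*, *Nlrp5* and *Ddx4* among them, and *Zp3* had 1 UMI, *Gdf9* 2 and *Ooep* 3. Of the leukocyte markers *Tyrobp* and *Nkg7* had none beside *Ptprc*, and *Csf1r* had 4 UMIs and *Adgre1* 1. The 7 smooth muscle and pericyte markers summed to 3.89 against 2.56, with *Acta2*, smooth muscle actin, at 2.39 against 1.49. Most of this RNA lay outside clusters 7 and 11, which held most of the *Ptx3*-high cells. Of 388 *Acta2* UMIs 31 were in those of cluster 7 and 48 in those of cluster 11, at levels of 0.426 and 0.653. The stroma markers without *Dcn*, a gene of the rule, summed to 2.32 against 2.39, and of 4 tested 1 was higher, *Mfap5* at 0.450 against 0.108, found in 6.87% of the cells.

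**Figure D2:**
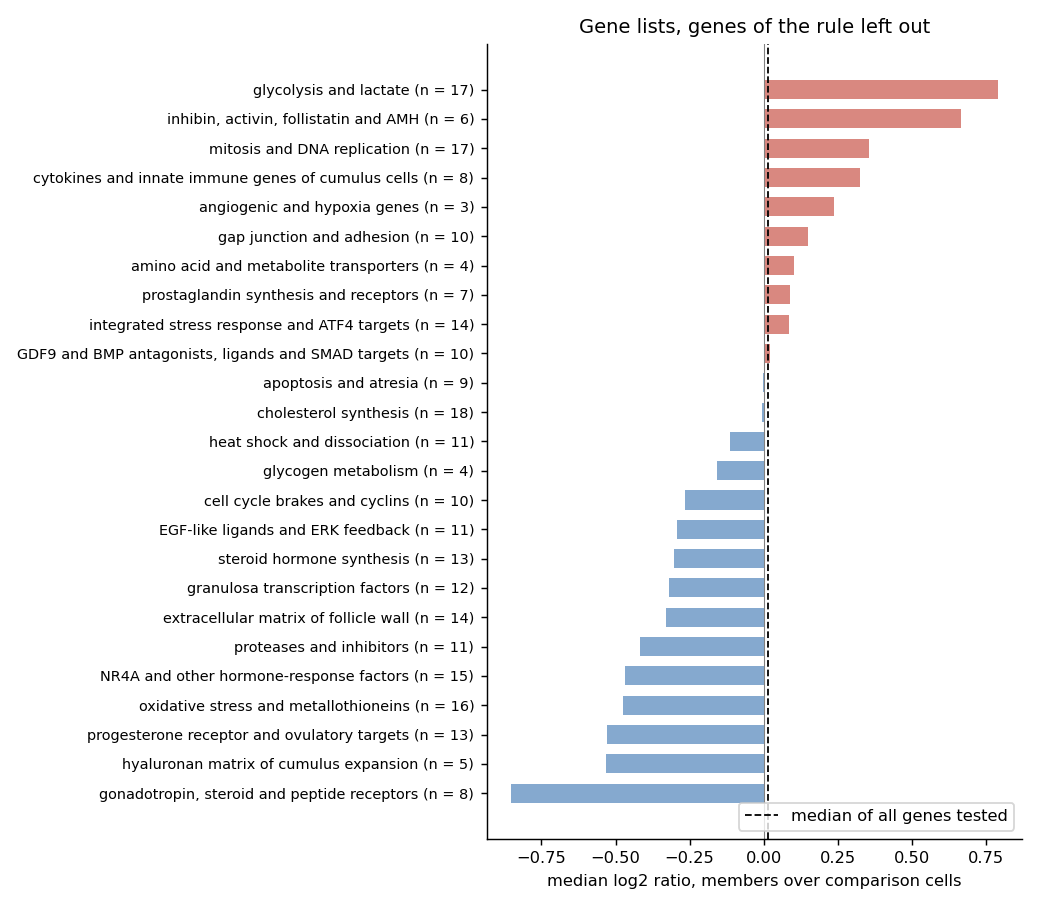
Median log2 ratio of *Ptx3*-high over comparison cells for 25 gene lists, with the number of genes tested in each and the genes of the rule left out. The dashed line is the median of all 5454 genes tested, 0.01, and the lists run from glycolysis at 0.79 to the receptors at -0.85.

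Outside the genes of the rule, the matrix of cumulus expansion was not uniformly higher. Of 5 other tested genes of that list, *Ptgs2*, the inducible cyclooxygenase, was higher at 0.881 (0.743 to 1.04) against 0.0784, and *Hmmr*, a hyaluronan receptor that also serves the mitotic spindle, at 0.628 against 0.2495. *Vcan*, the large hyaluronan-binding proteoglycan versican, was lower at 10.4 (9.89 to 10.9) against 26.7, and so was its protease *Adamts1*, at 0.493 against 1.96. The median log2 ratio of these 5 was -0.53, and at 3000 UMIs per cell it was 0.15.

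Of 7 tested prostaglandin genes 2 were higher and 2 lower. *Pla2g4a*, the cytosolic phospholipase that frees arachidonic acid, was at 3.86 (3.57 to 4.18) against 0.727, and *Ptgs2* was the other higher gene. The prostaglandin E synthases *Ptges*, *Ptges2* and *Ptges3* had ratios of 1.06, 0.775 and 1.39. Lower were *Hpgd*, the prostaglandin-degrading dehydrogenase, at 0.136 against 0.475, and *Slco2a1*, a prostaglandin transporter, at 0.259 against 1.06. The list's median log2 ratio was 0.09 against 0.01 over all genes.

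Of 11 tested genes in the list of EGF-like ligands and ERK feedback, the ligand *Btc*, betacellulin, was the one at least 2-fold higher. It was at 7.12 (6.72 to 7.54) against 0.978, and was found in 86.3% of the cells. *Egfr*, the receptor, was lower at 0.265 against 0.655, and so was *Fosl2*, the AP-1 factor that the study follows, at 0.672 (0.551 to 0.810) against 1.43. The *Fosl2* ratio of 0.469 had an interval of 0.384 to 0.567, part of which was short of 2-fold. Over the alternatives given at the end, the ratio of *Egfr* reached 0.542 and that of *Fosl2* 0.563. In the cells of barcode set 2 that met the rule, *Fosl2* had a ratio of 1.07 (0.963 to 1.196). *Areg*, amphiregulin, was not tested for its low level and stood at 0.283 against 0.110. The median of the list was -0.29.

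Of 10 tested genes of BMP and GDF9 signalling beside *Grem1*, none was at least 2-fold higher and *Nbl1*, another BMP antagonist, at 0.308 against 1.16, and *Id2*, a BMP target, at 1.08 against 2.27, were lower. *Smad7*, the inhibitory SMAD, was at 1.66 against 0.864, short of 2-fold. The median was 0.02. In the inhibin and activin list, beside *Inhba* and *Inhbb*, the AMH receptor *Amhr2* was lower at 0.142 against 0.854, and the median over 6 genes was 0.66, and -0.01 within cluster 11.

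Genes of glycolysis were the list with the highest median, 0.79 over 17 genes, with 5 higher and 1 lower. *Ldha*, lactate dehydrogenase A, was at 13.8 (13.2 to 14.4) against 5.57, *Pkm*, pyruvate kinase, at 8.40 against 3.81, *Eno1*, enolase, at 4.79 against 1.93, *Hk2*, hexokinase 2, at 1.14 against 0.464, and *Slc16a3*, a lactate exporter, at 1.67 against 0.394. *Ldhb*, the other lactate dehydrogenase subunit, was lower, at 0.924 (0.782 to 1.08) against 3.25. Within cluster 11 the median of the list was 0.21, and *Ldha*, *Eno1*, *Slc16a3* and *Ldhb* were no longer 2-fold apart, with ratios of 1.35, 1.17, 1.41 and 0.514. Within cluster 7 *Ldha* was still higher, with a ratio of 2.39 (2.22 to 2.57). The other genes of the list are not reported for that cluster. Of glycogen genes 1 of 4 tested was higher, *Pgm1* at 0.973 against 0.423, and the median was -0.16.

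Steroid and receptor genes were mostly lower or within 2-fold. Of 13 tested genes of steroid hormone synthesis 3 were lower (*Star*, *Cyp11a1* and *Nr5a2*) and none was higher, with a median of -0.30. *Cyp19a1*, aromatase, was at 0.0493 against 0.0784 and was not tested for its low level. Of 18 tested genes of cholesterol synthesis none was at least 2-fold apart in either direction, and their median was -0.01. The receptor list had the lowest median, -0.85 over 8 genes, with *Prlr*, *Insr*, *Kitl* and *Pgrmc1* lower. *Kitl*, the KIT ligand through which GCs act on oocytes and theca cells, was at 0.166 against 0.764. *Igf1* was higher, at 2.45 (2.21 to 2.70) against 1.03.

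Lower genes outnumbered higher ones among GC transcription factors, antioxidant genes and ovulatory targets. Of 12 tested transcription factors of GCs 5 were lower, *Foxl2*, *Nr5a2*, *Gata6* at 0.536 against 1.66, *Wt1* at 0.117 against 0.442 and *Smarca1* at 2.42 against 6.58, and none was higher. Of 16 genes of oxidative stress 5 were lower, among them *Gsta4* at 2.22 against 7.62, *Gclc* at 0.413 against 1.19 and the metallothionein *Mt2* at 2.25 against 6.47. Over the alternatives given at the end, the ratio of *Wt1* (0.265) reached 0.946 and that of *Mt2* (0.348) reached 0.770, both short of 2-fold. Of 13 targets of the progesterone receptor and of ovulation, *Rgcc*, a regulator of the cell cycle, was higher at 6.35 (5.97 to 6.75) against 1.495 and *Cebpa* at 0.986 against 0.421, and 5 were lower, with *Prkg2*, a cGMP-dependent kinase, at 0.456 against 2.12. Among proteases 4 of 11 were lower (*Timp2*, *Adamts9*, *Adamts5* and *Adamts1*) and none was higher.

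In the cytokine list 5 of 8 tested genes were at least 2-fold apart. *Tlr2*, *Cxcl1* (1.23 against 0.461) and the adhesion molecule *Alcam* (5.28 against 1.87) were higher, and *Il6st* and *Socs3* were lower. Of 14 genes of the integrated stress response beside *Nupr1*, *Shmt2*, a serine to glycine enzyme of mitochondria, was higher at 0.844 against 0.293 and *Slc7a11*, the cystine transporter, lower at 0.246 against 0.516. Within cluster 11 the direction of *Slc7a11* turned, to a ratio of 1.14, and *Shmt2* had a ratio of 1.65. In the follicle wall matrix *Lox* and *Sdc1* were higher of 14 and *Ccn1* and *Ccn2* lower, *Ccn2* at 0.0431 (0.0173 to 0.0889) against 0.539. Of 11 genes of heat shock and dissociation 3 were lower (*Hspb1*, *Hspa1a* and *Hspa1b*) and none was higher. The immediate early list had *Ier3* and *Crem* higher of 15, with a median of -0.47.

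The mitosis and DNA replication list was higher in the median, 0.36 on the log2 scale over 17 genes, with *Ccnb1*, cyclin B1, the one at least 2-fold higher, at 1.13 (0.976 to 1.31) against 0.504. Beside it stands the larger share of *Ptx3*-high cells that had *Mki67* or *Top2a*, given above, whose part in the result was not tested. Against only the comparison cells with at least the median UMIs of the *Ptx3*-high cells, the median turned to -0.39 and the ratio of *Ccnb1* was 1.16, so the direction of this list was not kept. This alternative was chosen after seeing the data. Of 10 cyclins and brakes of the cell cycle none was at least 2-fold apart. The same held for the 3 tested angiogenic genes, among them *Vegfa* at 0.573 against 0.365. In each of 3 further lists 1 gene was higher. *Slc7a1*, a carrier of cationic amino acids, was the one of 4 tested transporter genes, at 0.616 against 0.241. *Itga5*, an integrin alpha subunit that binds fibronectin, was the one of 10 adhesion genes, at 0.579 against 0.223. *Bcl2l11*, the pro-apoptotic BIM, was the one of 9 genes of apoptosis and atresia, at 0.481 against 0.240, a ratio of 2.001. Within cluster 11 the ratios were 1.99 for *Slc7a1*, 2.56 for *Itga5* and 1.95 for *Bcl2l11*. Of the adhesion genes *Itga6* and *Nectin2* were lower.

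Clustering of barcode set 3 without the genes of the rule gave 19 clusters and put 66 of the 131 cells (50.4%; 41.5% to 59.2%) in cluster 11, of 336 cells, and 44 (33.6%; 25.6% to 42.4%) in cluster 7, of 577 cells. Cluster 11 was led by *Ptx3*, *Dnah7c*, *Grem1*, *Inhbb*, *Spp1* and *Nupr1*, although *Ptx3*, *Grem1* and *Nupr1* had not been used to make it. Cluster 7 was led by mitotic genes such as *Brca1*, *Dlgap5* and *Ccnb1*. A further 10 cells fell in cluster 14, whose median was 1211 UMIs, and 11 in 6 other clusters. Of the 15 nearest neighbours of a *Ptx3*-high cell, 55.8% were *Ptx3*-high cells on average, against 1.14% of the set. *Ptx3*-high cells were 19.6% of cluster 11, where 194 comparison cells also lay.

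**Figure D3:**
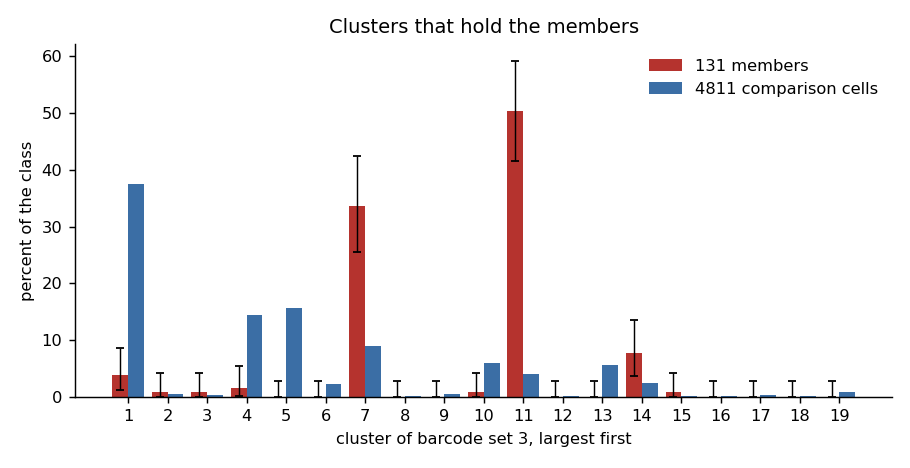
Share in percent of the 131 *Ptx3*-high cells (red, with exact 95% binomial intervals) and of the 4811 comparison cells (blue) that fell in each of 19 clusters of barcode set 3. Clusters 11 and 7 hold 50.4% and 33.6% of the *Ptx3*-high cells, while cluster 1 holds 37.6% of the comparison cells and 3.82% of the *Ptx3*-high cells.

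The *Ptx3*-high cells of cluster 7 and of cluster 11 were set against each other. Of the genes that chose them, *Ptx3* was at 28.8 in those of cluster 7 and 30.3 in those of cluster 11, *Grem1* at 4.85 and 6.02, and *Has2* at 0.796 and 1.25. Over all genes, 199 of 5338 (3.73%) were at least 2-fold higher and 104 (1.95%) at least 2-fold lower in the cells of cluster 7. Mitotic genes led them, with *Top2a* at 6.25 against 0.218, a ratio of 28.7 (17.5 to 50.6), and *Ube2c*, a ubiquitin-conjugating enzyme of anaphase, at 6.95 against 0.163. Of the 20 highest genes named above, 19 differed by less than 2-fold between the clusters, a share close to that of all genes, and the exception was *Ptn*, at 0.535 in cluster 7 and 1.43 in cluster 11. Lower in cluster 7 were also *Mgp*, matrix Gla protein, at 1.02 against 3.80 and *Zfat*, a zinc finger gene, at 0.549 against 1.96, both chosen after their values were seen.

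Against comparison cells of the same cluster, all 20 of the highest genes remained at least 2-fold higher in cluster 7 and in cluster 11, where 4.13% of 5475 and 3.17% of 5358 genes were. At least 2-fold lower were 6.63% in cluster 7 and 3.3% in cluster 11. The 20 highest and 15 lowest genes had been picked for their ratios in these same cells, most of which lie in clusters 7 and 11. Their ratios within the clusters are therefore a description only. *Sytl3* was 28.5-fold higher within cluster 7 (19.6 to 42.5) and 15.5-fold within cluster 11 (8.40 to 31.2). *Spp1* was 2.83-fold higher (2.67 to 2.99) and 2.99-fold higher (2.80 to 3.18). Within cluster 11 the ratios of *Krt23* and *Jag1* were larger than over all cells, and those of the rest of the 20 were smaller. *Sdc1* went from 8.21 over all cells to 3.03 and *Dnah7c* from 18.5 to 4.38. Of the 15 lowest genes 13 remained at least 2-fold lower within each cluster. *Sorbs2*, *Cst12*, *Itga6* and *Sytl4* lay there below the mean level needed for testing, and the counts of the 15 include them. Counted next were the 20 highest, the 15 lowest and up to 4 genes of largest change per list, where 2-fold apart over all cells. Other cell type markers, such as *Inhba* and *Inhbb*, and further list genes, such as *Vcan*, were not counted. Within cluster 11, 25 higher and 38 lower genes of those counted were still 2-fold apart, while 12 higher and 6 lower ones were not. Among the latter were *Rgcc* with a ratio of 1.77, *Ier3* with 1.76, *Crem* with 1.71, *Igf1* with 1.60, *Pgm1* with 1.30, *Pgrmc1* with 0.681 and *Nbl1* with 0.511. Of the 25 list medians 19 kept their sign there. Among the 15 lowest genes the exceptions within cluster 7 were *Cst12*, with a ratio of 0.570, and *Itga6*, with 1.31 (0.596 to 2.61). Within cluster 11 they were *Cited1*, with 0.510, and *Itga6*, with 0.558. In cluster 7 the levels of *Top2a* differed little between the classes, with a ratio of 1.33 (1.20 to 1.47). *Vcan* was lower within that cluster too, at 9.31 against 39.5, and within cluster 11 it was at 10.4 against 19.9, short of 2-fold.

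**Figure D4:**
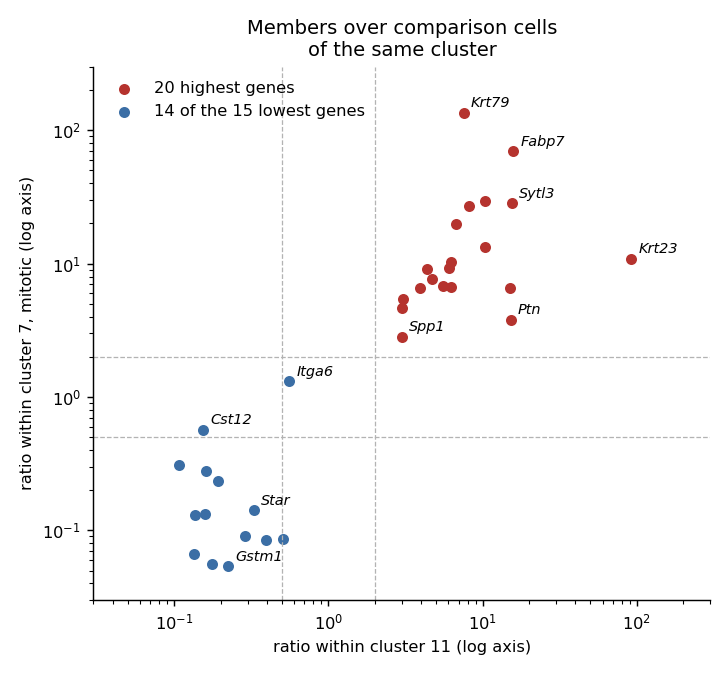
Ratio of *Ptx3*-high over comparison cells within cluster 11 (horizontal, log axis) and within the mitotic cluster 7 (vertical, log axis) for the 20 highest (red) and 14 of the 15 lowest genes (blue), with dashed lines at 2-fold in either direction. The 20 highest genes lie above 2 on both axes, and *Itga6* and *Cst12* lie above the lower line within cluster 7.

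The same rule found 83 of 9917 cells in barcode set 2 (0.837%; 0.667% to 1.04%) and 0 of 10384 in barcode set 1. For that 0 a limit of 3 cells allows a share of up to 0.0289%, and the exact binomial interval reaches 0.0355%. In set 1, 27 cells had *Ptx3* of at least 2, and 22 of them had *Pecam1*. *Ptx3* was detected at any level in 0.819% of the cells of set 1, 6.74% of set 2 and 8.01% of set 3. In set 2 the cells that met the rule carried 40.3% of all *Ptx3* UMIs, had a median of 7169 UMIs, and had all 4 companions in 5 of 83 cells. At 3000 UMIs per cell *Nupr1* was found in 93.4% of the cells of set 3 and 28.9% of those of set 2, *Has2* in 19.7% and 10.8%, *Grem1* in 60.7% and 65.1%, and *Tnfaip6* in 74.6% and 83.1%. These genes belong to the rule, and the order of the sets differed between them.

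Against 4168 comparison cells of set 2, 91 of 4680 genes (1.94%) were at least 2-fold higher and 150 (3.21%) at least 2-fold lower in the 83 cells. Of the 20 highest genes of set 3, 8 were tested in set 2 and 4 of these were at least 2-fold higher, *Heyl*, *Ptgs2*, *Prdm1* and *Fam110c*. Of all 20, 14 had ratios above 1 in set 2, though the intervals of *Trbc2*, *Tlr2*, *Steap1* and *Krt79* among them reached below 1. The other 6 had ratios below 1 with intervals that reached past 1, among them *Spp1* at 0.811 (0.387 to 1.504) and 3 genes with 0 UMIs in the 83 cells. *Ptgs2* was at 3.46 (3.04 to 3.92) against 0.949 in set 2, *Heyl* at 2.14 against 0.577 and *Prdm1* at 1.60 against 0.586. Of the 15 lowest genes 11 were tested and 8 were at least 2-fold lower, and all 15 had ratios below 1. Among them the interval of *Sytl4* reached past 1, at 0.833 (0.622 to 1.093). *Prlr* was at 1.01 against 2.67 and *Star* at 1.83 against 4.84 in set 2. Of the 4258 genes tested in both sets, 26 were higher in both, which is 20.2% of the 129 higher in set 3 and 43.3% of the 60 higher in set 2, with *Igf1* and *Inhbb* among them. Lower in both were 54 genes, 25.7% of 210 and 43.5% of 124, among them *Cyp11a1*, *Foxl2*, *Wt1*, *Kitl* and *Insr*. *Vcan* did not share this, at 8.06 against 8.34 in set 2.

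**Figure D5:**
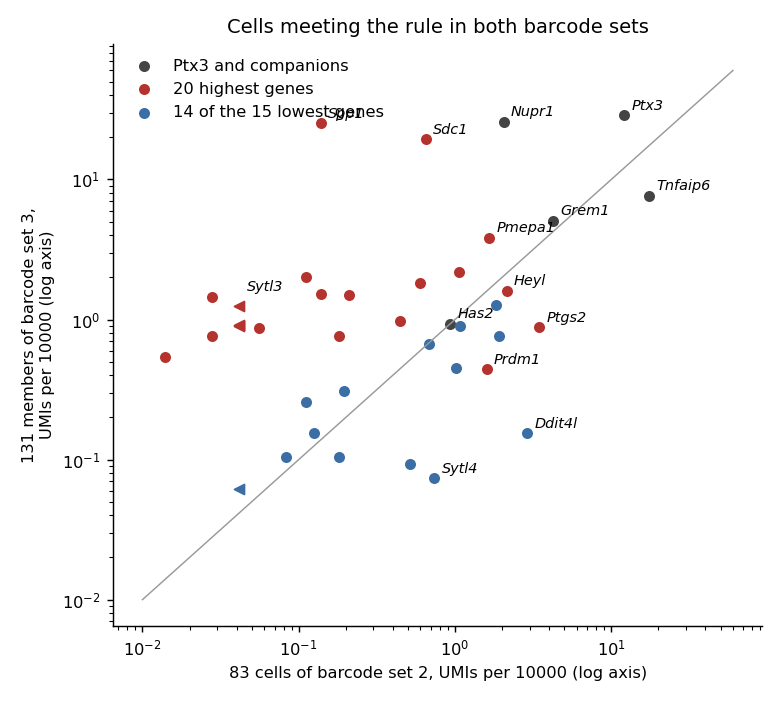
Levels in UMIs per 10000 (log axes) in the 83 cells of barcode set 2 and the 131 cells of barcode set 3 that met the rule, for *Ptx3* and its companions (grey), the 20 highest (red) and 14 of the 15 lowest genes (blue) of set 3. Triangles stand at the level of 3 UMIs for genes with none in set 2, the line marks equal levels, and *Spp1* at 25.3 against 0.139 lies farthest above it.

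The cells that met the rule in the 2 sets differed from each other in many more genes. Of 5003 genes, 1035 (20.7%) were at least 2-fold higher and 506 (10.1%) at least 2-fold lower in those of set 3, a comparison that cannot be told apart from any difference between the libraries. *Spp1* was at 25.3 in set 3 and 0.139 (0.0666 to 0.256) in set 2, *Sdc1* at 19.4 and 0.653, and *Nupr1* at 25.9 and 2.04. *Krt23*, *Fabp7*, *Ptn* and the asialoglycoprotein receptor gene *Asgr1* had 0 UMIs in the cells of set 2, so that *Asgr1*, at 1.87 in set 3, was at least 44.8-fold higher by the level of 3 UMIs over that class. *Sult1e1*, an estrogen sulfotransferase, was at 28.2 and 1.06. The comparison cells of the sets lay in the same order for *Spp1*, *Sdc1*, *Nupr1*, *Krt23*, *Fabp7*, *Ptn* and *Sult1e1*, with *Sult1e1* at 18.96 in set 3 and 1.18 in set 2, *Spp1* at 2.67 and 0.171, *Sdc1* at 2.37 and 0.458, *Nupr1* at 1.54 and 0.913, *Krt23* at 0.0235 and 0.00455, *Fabp7* at 0.0450 and 0.0101, and *Ptn* at 0.0544 and 0.0400. *Tnfaip6* and *Ptgs2* were lower in set 3, at 7.66 against 17.5 and at 0.881 against 3.46, and so they were in the comparison cells, at 1.66 against 6.05 and at 0.0784 against 0.949.

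Genes at a higher level in the cells of set 2 are named here after their values were seen. *Cyp19a1* was at 6.14 (5.58 to 6.74) there and at 0.0493 (0.0213 to 0.0971) in set 3, *Ihh*, Indian hedgehog, at 3.58 and 0.0308, and *Nppc*, the C-type natriuretic peptide precursor of mural GCs, at 1.83 and 0.0554. *Areg* was at 5.89 and 0.283, and the tissue factor gene *F3* at 10.1 and 0.0678. *Fosl2* was at 4.77 in set 2 and 0.672 in set 3, and *Fos* at 10.7 and 11.2. The comparison cells of the sets differed in the same direction, with *Cyp19a1* at 4.69 in set 2 and 0.0784 in set 3 and *Areg* at 11.9 and 0.110, so that within set 2 *Areg* was lower in the cells that met the rule, with a ratio of 0.494. *Has2* differed little, at 0.931 (0.721 to 1.18) and 0.936 (0.794 to 1.10), and *Grem1* stood at 4.22 and 5.08.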

How the data were processed

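The authors deposited 1 table of 24958 genes by 31776 cells, holding the natural log of 1 plus UMIs per 10000. Submitters' processing notes name Cell Ranger, Seurat and mm10. Versions, annotation and filters on cells are not given in the sources used here. UMI counts were worked back from the values, each whole within 0.01, and summed per class. Members and gene lists were chosen with earlier results of these data known. Genes were tested, with no statistical test, for a ratio of at least 2 where the mean of both levels was at least 0.25. Named genes were those of the rule, the 20 highest and 15 lowest ratios among genes detected in at least 20% of the higher class, up to 4 genes per list of largest change, cell type markers, and others chosen after their values were seen. Of the 15 lowest, 1 counts in the totals but is not reported here. Clusters used 2000 variable genes without the 10 genes of both rules, 30 components, 15 neighbours and resolution 1. Doublets were not removed. The comparison was run on counts simulated from the same Poisson model as the intervals. Such counts hold no variation between cells and cannot test its effect. Python 3.11.15, numpy 2.4.6, scipy 1.17.1, scikit-learn 1.9.0, scanpy 1.11.5 and python-igraph 0.11.9 were used.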

Additional observations from a re-analysis of the deposited data

Results flagged for a closer look

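Of the 4258 genes tested in both barcode sets 2 and 3, 4 differed at least 2-fold from the comparison cells in opposite directions. This holds for the cells that met the rule, and genes of the rule are left out. The 4 were 1 of the 129 genes higher in set 3 and 3 of the 210 lower there. In set 2, 124 of the 4258 genes were lower and 60 higher. *Cited4*, a transcriptional co-activator, had a ratio of 2.62 in set 3 (1.32 against 0.506 UMIs per 10000) and of 0.2503 in set 2. *Cdk6*, a kinase of the G1 phase, had 0.323 in set 3 and 2.44 in set 2. *Fgl2*, a fibrinogen-like protein, had 0.247 in set 3 and 2.54 in set 2. *Nmu*, the precursor of neuromedin U, had 0.353 in set 3 and 2.88 in set 2. Each set is 1 sample, the genes were picked for this pattern, and the difference between the sets was not tested.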

How the results depend on the processing

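No paired analysis was possible because each time point has 1 library and no cell is tied to a library. Under the 15 alternatives that change the cells, totals or averaging, 4 of them chosen after seeing the data, the 20 highest genes all remained at least 2-fold higher. They had been picked for their ratios in mostly the same cells. The 15 lowest all remained lower except that 14 did against comparison cells with *Lhcgr* and 13 within cluster 11. The counts of genes followed the filter on level. With none beyond 1 UMI, 1587 of 20348 genes were at least 2-fold higher and 7817 lower. The lower ones there include genes with no UMI in the *Ptx3*-high cells. With a mean of both levels of at least 1, 69 of 1745 genes were higher and 81 lower. The number of cells was 77 at a *Ptx3* of at least 3 and 202 at 1.5. Alternatives chosen after seeing the data kept to cluster 11, where 177 of 5358 genes were lower than in its comparison cells. There the ratio of *Ccnb1*, 2.25 in all cells, was 0.465, and that of *Slc7a11*, 0.477 in all cells, was 1.14. The cells of cluster 11 against all comparison cells gave *Ccnb1* 0.0810, and they lack most of the mitotic cells. Median log2 ratios of mitotic genes ran from -2.14 to 2.81 over the alternatives, those of glycolysis from 0.21 to 0.91, of prostaglandin genes from -0.22 to 1.36 and of inhibin and activin genes from -0.01 to 1.17. With no replicate, the spread between animals is unknown.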
